A study of Mus musculus with 6 samples.

Results

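Adipogenic transcription factors are the DNA-binding proteins that turn a fibroblast-like precursor into a fat cell, or that hold it back. The expression of 10 of them was followed here in epididymal white adipose tissue (eWAT), the visceral fat pad of the male mouse. The set was Cebpb and Cebpd (early factors), Pparg and Cebpa (late factors), Klf15, Ebf1, Ebf2, Zfp423, and the inhibitors Ddit3 and Gata3. They were taken by gene symbol from the deposited table of 40213 genes, which held all 10, and all 10 were among the 14706 genes that passed the filter on low counts.

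The WT-HFD group consisted of 3 libraries from wild-type males, and the RFP KO-HFD group of 3 libraries from males lacking Ret finger protein (RFP), an E3 ubiquitin ligase encoded by Trim27. Both groups received a 60% high-fat diet (HFD, D12492) for 12 weeks from an age of 8 to 10 weeks, so every value belongs to obesogenic feeding and no library comes from chow-fed mice. The knockout is in the whole animal, with littermates as controls, and its allele is not given in the sources used here. The labels name the cell type as adipocyte, but RNA came from whole tissue, which also holds stroma, vessels and immune cells. Nothing in the labels says that the libraries of a group came from separate mice, so the p-values measure the spread between these libraries only.

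Adipogenesis runs as a relay. Hormonal signals, among them glucocorticoids and cyclic AMP, first induce C/EBPβ and C/EBPδ in the precursor, and these switch on PPARγ and C/EBPα, which then maintain each other and drive the genes of lipid storage. KLF15, EBF1, EBF2 and ZFP423 act alongside this relay, ZFP423 and the EBF factors already in the committed precursor, whereas CHOP (encoded by Ddit3) and GATA3 block it, the former by pairing with C/EBP proteins and the latter by keeping the cell a preadipocyte.

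The promoters of 3 members are shown because these genes stand at the hand-over between steps of the relay: Pparg at the start of its fat-specific isoform PPARγ2, the early factor Cebpb, and Klf15, whose libraries separated by group label. Each window holds the 250 bases before the transcription start (RefSeq, build GRCm38.p6), 5′ to 3′ on the strand of the gene. Capitals mark 4 motifs searched on both strands: the C/EBP site TTGCNNAA, the E-box CACGTG, the CCAAT box CCAAT and the cyclic AMP response half-site TGACG.
Pparg, plus strand, chr6:115421816-115422065: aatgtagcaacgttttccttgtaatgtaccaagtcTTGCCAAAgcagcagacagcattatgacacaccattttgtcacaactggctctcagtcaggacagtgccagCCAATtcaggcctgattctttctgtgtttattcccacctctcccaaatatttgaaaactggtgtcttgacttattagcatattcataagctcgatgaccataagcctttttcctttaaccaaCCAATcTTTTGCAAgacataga
Cebpb, plus strand, chr2:167688665-167688914: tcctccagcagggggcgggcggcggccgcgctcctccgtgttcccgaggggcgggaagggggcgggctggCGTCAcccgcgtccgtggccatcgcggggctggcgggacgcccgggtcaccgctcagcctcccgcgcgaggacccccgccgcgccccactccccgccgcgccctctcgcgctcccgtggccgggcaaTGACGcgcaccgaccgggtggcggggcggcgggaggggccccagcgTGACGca
Klf15, plus strand, chr6:90462326-90462575: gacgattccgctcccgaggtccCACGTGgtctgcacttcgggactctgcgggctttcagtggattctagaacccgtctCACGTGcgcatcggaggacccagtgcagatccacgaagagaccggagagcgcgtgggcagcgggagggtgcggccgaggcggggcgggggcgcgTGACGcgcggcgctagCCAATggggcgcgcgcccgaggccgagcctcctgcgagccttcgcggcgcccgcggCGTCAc

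The Pparg window, upstream of transcript Pparg-201 with an open reading frame of 505 codons, held 2 C/EBP sites, the nearer at bases 16 to 9 before the start, and 2 CCAAT boxes. The Cebpb window held 3 cyclic AMP half-sites, at bases 180 to 176, 53 to 49 and 7 to 3 before the start. The Klf15 window held 2 E-boxes, 1 CCAAT box and 2 cyclic AMP half-sites. None of these matches overlapped another. The table of promoters matched 8 of the 10 members (12 windows; Cebpd and Ebf2 were not matched). Among all 32851 mouse windows of the same length, the C/EBP site occurred in 9.56%, the E-box in 6.02%, the CCAAT box in 33.8% and the cyclic AMP half-site in 17.8%, against 2, 1, 4 and 2 of the 12 member windows. A match is a description of the letters, not a binding site. Gene-level counts do not separate PPARγ2 from the other Pparg isoforms.

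The libraries differed in ways that touch every value below. Total counts were 15216306 to 17215047 in WT-HFD, 13924363 and 13309044 in RFP KO-HFD 2 and 3, and 4870239 in the library labelled RFP KO-HFD 1. Mitochondrial counts took 3.39% to 5.74% of the wild-type libraries, and 22.35%, 8.07% and 11.1% of RFP KO-HFD 1, 2 and 3. Protein-coding nuclear genes took 90.1% to 91.5% of the former, and 66.8%, 78.3% and 63.3% of the latter, so all 3 RFP KO-HFD libraries stood apart from WT-HFD in both. The library labelled RFP KO-HFD 1 had 10758 detected genes (16396 to 20278 in the others). Its Trim27 level was 19.4 CPM (counts-per-million of the library size, corrected by the trimmed mean of M-values, TMM), near the lowest wild-type level (22.7 to 40.2 CPM), whereas RFP KO-HFD 2 and 3 had 4.10 and 4.63 CPM. Its label was kept. The 12 hepatocyte markers summed to 203, 482 and 283 CPM in WT-HFD 1, 2 and 3 and to 26922.4, 1861.2 and 4369.6 CPM in RFP KO-HFD 1, 2 and 3, and each of the 12 was higher in every RFP KO-HFD library than in every WT-HFD library (median log2 fold change 6.37, and 3.31 without RFP KO-HFD 1). In RFP KO-HFD 1 the 10 adipocyte markers summed to 1089.5 CPM (14667.8 to 46933.4 CPM in the others), with Adipoq and Plin1 at 0. WT-HFD 2 stood apart in another way, with 947.5 CPM summed over the 10 markers of epididymal epithelium, against 0.274 and 0.835 CPM in WT-HFD 1 and 3 and 1.42 to 6.73 CPM in RFP KO-HFD, and 19213.6 CPM over the 9 markers of pericytes and smooth muscle, against 29.3 to 1318.4 CPM in the other 5. Whether these features set the values of the members was not tested. Results are given with and without the libraries they rest on, but the hepatocyte markers and the mitochondrial share separate the groups and cannot be told apart from the group difference. In whole tissue, fewer cells of a type and less RNA per cell cannot be told apart.

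**Figure D1:**
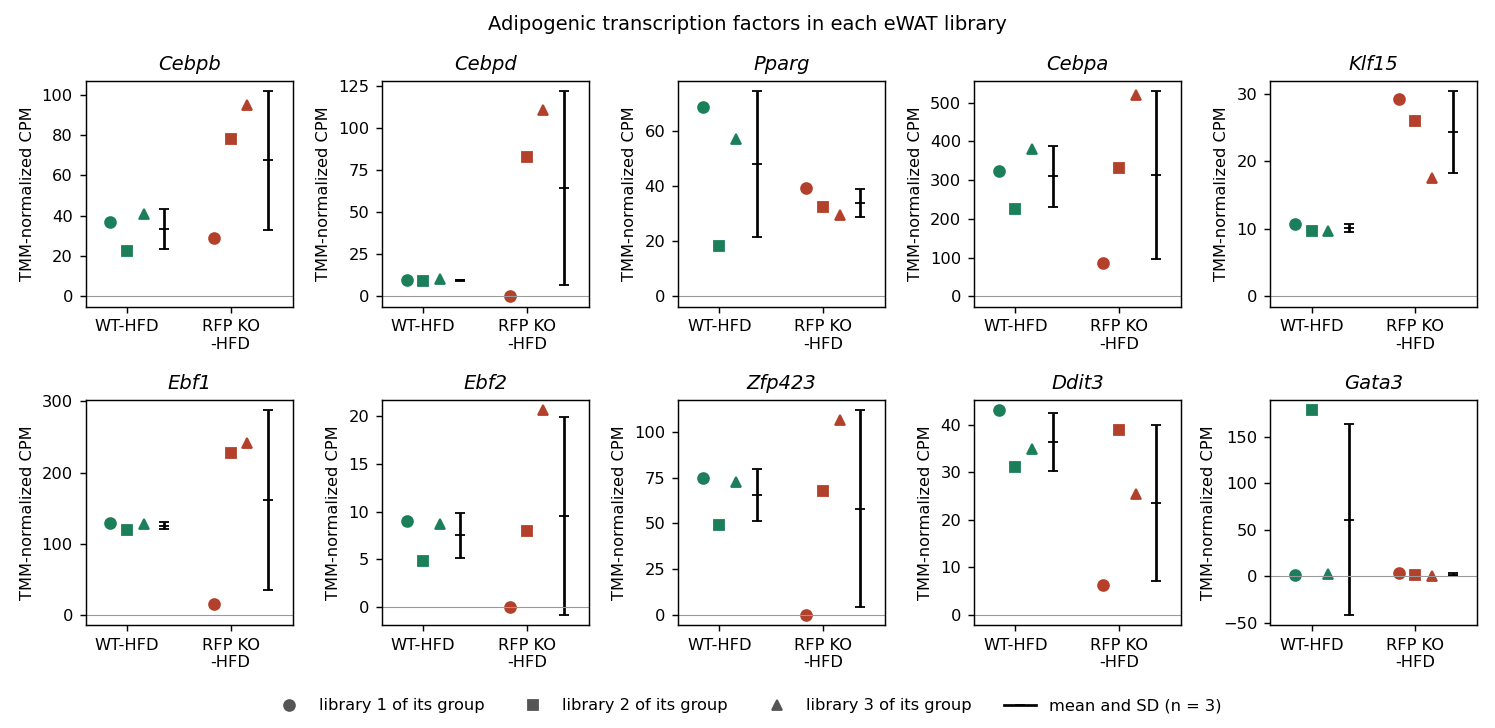
TMM-normalized CPM (y axis, linear, separate scale per gene) of the 10 factors in the 3 WT-HFD libraries (green) and the 3 RFP KO-HFD libraries (red), with circle, square and triangle for libraries 1, 2 and 3 of a group and a black dash with bar for the mean and SD (n = 3). RFP KO-HFD 1 (red circle) is at 0 for Cebpd, Ebf2 and Zfp423, RFP KO-HFD 2 and 3 lie above all WT-HFD libraries for Cebpb, Cebpd, Klf15 and Ebf1, and Gata3 is high in WT-HFD 2 alone.

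No member passed the threshold of an adjusted p under 0.05 in edgeR's quasi-likelihood test with Benjamini-Hochberg adjustment over all 14706 genes, and neither did any other gene (0% of genes tested). At an unadjusted p under 0.05, 2 of the 10 members were called, Klf15 higher and Gata3 lower in RFP KO-HFD, beside 992 genes or 6.75% of all tested (4.05% higher and 2.7% lower). The members' log2 fold changes, RFP KO-HFD against WT-HFD, had a median of 0.18 (−0.32 when scaled by library totals), beside −0.13 over all genes, and 6 of 10 were above 0, beside 44% of all genes. Without RFP KO-HFD 1, 7 of 10 were above 0, beside 46.5%. With limma-voom and a quality weight per library, Cebpb, Cebpd and Klf15 passed an adjusted p under 0.05, as did 7.07% of all genes. The groups did not overlap for 1 member, Klf15, beside 23.3% of all genes. RFP KO-HFD 2 and 3 both lay above all 3 WT-HFD libraries for 4 members (Cebpb, Cebpd, Klf15 and Ebf1), beside 21.5% of all genes, and both lay below for none of the members, beside 24.7% of all genes.

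Cebpd (chr16:15705150-15707409, plus strand, build GRCm39 for this and all deposited gene coordinates) encodes C/EBPδ, an early factor that is induced by glucocorticoids and inflammatory signals. Its level was 9.41, 8.94 and 9.97 CPM in WT-HFD 1, 2 and 3, and 0, 82.6 and 110.7 CPM in RFP KO-HFD 1, 2 and 3. The WT-HFD libraries were nearly level, whereas the RFP KO-HFD libraries fell on both sides of them, with 2 far above and 1 without a single count. RFP KO-HFD 2 and 3 averaged 10.2 times the WT-HFD mean of 9.44 ± 0.519 CPM (SD, n = 3). A count of 0 at the depth of RFP KO-HFD 1 allows up to 0.607 CPM (3 counts), so that library was at least 15.6-fold lower than the WT-HFD mean. The fit over all 6 libraries gave a log2 fold change of 2.77 ± 1.65 (SE) with an edgeR adjusted p of 0.829. RFP KO-HFD 2 and 3 also had more hepatocyte transcripts and more mitochondrial counts than WT-HFD, and the part of these in the level of Cebpd was not tested. The log2 fold change without RFP KO-HFD 1 was 3.34 ± 0.209 (SE), with an edgeR adjusted p of 0.036, and Cebpd was then 1 of 2 genes past the threshold (0.0128% of the 15606 tested). Spidr overlaps Cebpd on the other strand and had 108 to 168 counts in the wild-type libraries. In RFP KO-HFD 2 and 3 it had 70 and 52 counts, against 1130 and 1005 counts of Cebpd. The strand setting of the counting is not given in the sources used here, so reads in the shared part of such overlapping genes cannot be told apart.

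Cebpb (chr2:167530835-167532352, plus strand), the other early factor and the one whose promoter carries the 3 cyclic AMP half-sites printed above, differed in the same direction by less. It was at 36.8, 22.2 and 40.8 CPM in WT-HFD 1, 2 and 3 and at 28.9, 78.1 and 94.9 CPM in RFP KO-HFD 1, 2 and 3. RFP KO-HFD 2 and 3 were above every WT-HFD library, and RFP KO-HFD 1 lay within their range. The group means were 33.3 ± 9.78 and 67.3 ± 34.3 CPM (SD, n = 3 each). This gave a log2 fold change of 1.02 ± 0.534 (SE; edgeR adjusted p = 0.802), which without RFP KO-HFD 1 was 1.36 ± 0.301 (SE; edgeR adjusted p = 0.0972). Unlike Cebpd, Cebpb was detected in RFP KO-HFD 1, with 143 counts. Cebpd counts per 100 Cebpb counts, a ratio that does not depend on the scaling of libraries, were 25.6, 40.3 and 24.5 in the wild type and 0, 105.8 and 116.6 in RFP KO-HFD, so that Cebpd matched or exceeded Cebpb in counts only in RFP KO-HFD 2 and 3 of the 6 libraries.

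Pparg (chr6:115337828-115467365, plus strand) encodes PPARγ, the nuclear receptor without which no adipocyte forms and the target of the thiazolidinediones. It was at 68.9, 18.2 and 57.0 CPM in WT-HFD 1, 2 and 3 and at 39.4, 32.5 and 29.4 CPM in RFP KO-HFD 1, 2 and 3. The 3 RFP KO-HFD libraries were close together and lay between WT-HFD 2, the lowest of all 6, and WT-HFD 1 and 3. The means were 48.0 ± 26.5 and 33.8 ± 5.13 CPM (SD, n = 3 each), a difference within the spread of WT-HFD, and the log2 fold change was −0.51 ± 0.541 (SE; edgeR adjusted p = 0.929). Without RFP KO-HFD 1 it was −0.65 ± 0.552 (SE; edgeR adjusted p = 0.496), and without RFP KO-HFD 1 and WT-HFD 2 together it was −1.03 ± 0.175 (SE; edgeR adjusted p = 0.0547). Because WT-HFD 2 had the lowest Pparg level, leaving it out lowers this value and narrows the spread by itself. The last value is therefore no separate support for a lower Pparg level.

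Cebpa (chr7:34818718-34821353, plus strand), whose product C/EBPα sustains PPARγ and insulin sensitivity in the mature fat cell and is also a major factor of hepatocytes, was at 324, 224.7 and 379.7 CPM in WT-HFD 1, 2 and 3 and at 86.3, 331.5 and 518.9 CPM in RFP KO-HFD 1, 2 and 3. The RFP KO-HFD libraries spanned the whole range of the 6, with RFP KO-HFD 1 lowest and RFP KO-HFD 3 highest. The means of 309.4 ± 78.5 and 312.3 ± 216.9 CPM (SD, n = 3 each) were nearly equal and their log2 fold change was 0.01 ± 0.66 (SE; edgeR adjusted p = 0.998). No direction can be read from it. The library RFP KO-HFD 1 also had the highest sum of hepatocyte markers and the lowest sum of adipocyte markers. The part of either cell type in the Cebpa level was not tested.

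Set against each other within a library, early and late factors kept a narrow ratio in WT-HFD and a wide one in RFP KO-HFD. The mean log2 CPM of Cebpb and Cebpd minus that of Pparg and Cebpa was −2.99, −2.17 and −2.86 in WT-HFD 1, 2 and 3 and −4.83, −0.37 and −0.27 in RFP KO-HFD 1, 2 and 3 (prior count of 2). RFP KO-HFD 2 and 3 were above all WT-HFD libraries and RFP KO-HFD 1 below all. The group means differed by 0.85 with an SD within groups of 1.87, and by 2.35 without RFP KO-HFD 1; no test was made of this value because the genes were chosen with results known. Cebpb counts per 100 Pparg counts were 53.4, 121.9 and 71.6 in the wild type and 73.3, 240.5 and 322.8 in RFP KO-HFD. Cebpd counts per 100 Pparg counts were 13.7, 49.1 and 17.5 in the wild type and 0, 254.5 and 376.4 in RFP KO-HFD. For both early factors the highest WT-HFD ratio to Pparg was that of WT-HFD 2, the library with the lowest Pparg, and it stayed below RFP KO-HFD 2 and 3.

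Against Cebpa, the separation of Cebpb was complete. Cebpb counts per 100 Cebpa counts were 11.4, 9.88 and 10.7 in the wild type and 33.5, 23.6 and 18.3 in RFP KO-HFD, and this was the one early-to-late ratio in which every RFP KO-HFD library was higher than every WT-HFD library. In RFP KO-HFD 1 this came with the lowest Cebpa level of the 6 libraries, and in RFP KO-HFD 2 and 3 with the highest Cebpb levels. The late factors did not keep step with one another either. Pparg counts per 100 Cebpa counts were 21.3, 8.11 and 15 in the wild type and 45.7, 9.79 and 5.67 in RFP KO-HFD, so the groups overlapped.

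**Figure D2:**
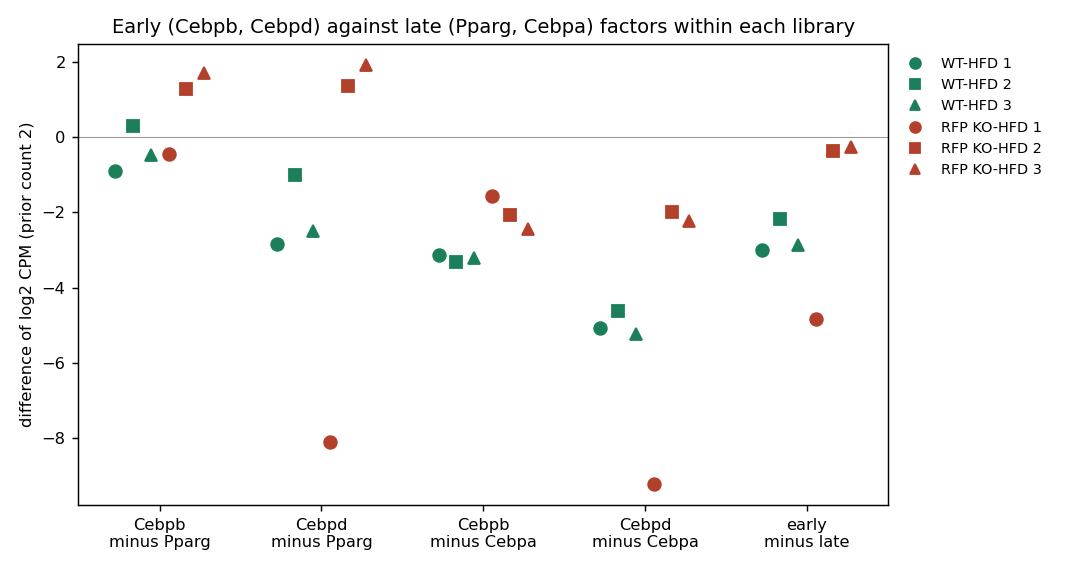
Differences of log2 CPM (y axis, prior count of 2) between an early and a late factor within each library, and between the means of both pairs (right), for the 3 WT-HFD (green) and 3 RFP KO-HFD libraries (red). RFP KO-HFD 2 and 3 lie above every WT-HFD library in all 5 comparisons (−0.37 and −0.27 against −2.99 to −2.17 for the pair means), and RFP KO-HFD 1, without Cebpd counts, is lowest wherever Cebpd enters.

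Klf15 (chr6:90437785-90468785, plus strand) encodes a Krüppel-like factor that is induced by glucocorticoids, promotes PPARγ expression and controls amino acid and glucose metabolism. It was at 10.7, 9.73 and 9.71 CPM in WT-HFD 1, 2 and 3 and at 29.3, 26.0 and 17.5 CPM in RFP KO-HFD 1, 2 and 3. Every RFP KO-HFD library exceeded every WT-HFD library, and RFP KO-HFD 1 was highest. That library also had the highest sum of hepatocyte markers (26922.4 CPM) and the lowest of adipocyte markers (1089.5 CPM). The part of either cell type in the level of Klf15 was not tested. The means of Klf15 were 10.1 ± 0.579 and 24.3 ± 6.09 CPM (SD, n = 3 each), a ratio of 2.41. Its log2 fold change was 1.27 ± 0.474 (SE), with an edgeR p of 0.0334 and an adjusted p of 0.688, so the call did not survive adjustment over all genes. It was 1.10 ± 0.258 (SE; edgeR adjusted p = 0.103) without RFP KO-HFD 1. DESeq2 called it (log2 fold change 1.31, adjusted p = 0.0163), as it did 3.45% of the genes it tested.

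Of the factors of the committed precursor, Ebf1 (chr11:44502738-44898923, plus strand), an early B-cell factor that also acts upstream of Cebpa and Pparg in fat, was at 129.1, 119.2 and 128.3 CPM in WT-HFD 1, 2 and 3 and at 15.2, 227.1 and 242.0 CPM in RFP KO-HFD 1, 2 and 3. The WT-HFD libraries were level, RFP KO-HFD 2 and 3 averaged 1.87 times their mean, and RFP KO-HFD 1 was 8.28-fold below it. Over all 6 libraries the log2 fold change was 0.36 ± 0.883 (SE; edgeR adjusted p = 0.97; −0.07 with library totals), and 0.89 ± 0.17 (SE; edgeR adjusted p = 0.0866) without RFP KO-HFD 1. Ebf1 is also expressed by B cells, whose 7 markers summed to 8.67 to 28.2 CPM in WT-HFD and to 26.1, 13.7 and 3.63 CPM in RFP KO-HFD 1, 2 and 3 (4 of 7 at 0 in RFP KO-HFD 1, Cd79a among them). Of the 7, 4 passed the filter on low counts, and the part of B cells in the Ebf1 level was not tested.

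Ebf2 (chr14:67470741-67668401, plus strand), which marks precursors of brown and beige fat and selects PPARγ binding sites in them, was at 9.03, 4.78 and 8.72 CPM in WT-HFD 1, 2 and 3 and at 0, 7.97 and 20.7 CPM in RFP KO-HFD 1, 2 and 3. RFP KO-HFD 2 lay within the range of WT-HFD and RFP KO-HFD 3 above it. It had a log2 fold change of 0.35 ± 1.5 (SE; edgeR adjusted p = 0.984; −0.20 with library totals), and 0.91 ± 0.503 (SE; edgeR adjusted p = 0.312) without RFP KO-HFD 1, so the difference was within the replicate error. RFP KO-HFD 1 was at least 12.4-fold lower than the WT-HFD mean of 7.51 ± 2.37 CPM (SD, n = 3).

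Zfp423 (chr8:88388438-88688665, minus strand) encodes a zinc-finger factor that commits fibroblasts to the fat lineage and holds the white state. It was at 74.8, 48.9 and 72.4 CPM in WT-HFD 1, 2 and 3 and at 0, 67.7 and 106.6 CPM in RFP KO-HFD 1, 2 and 3. Apart from RFP KO-HFD 1 the groups overlapped. The log2 fold change was −0.17 ± 1.52 (SE; edgeR adjusted p = 0.996) and turned to 0.40 ± 0.297 (SE; edgeR adjusted p = 0.442) without RFP KO-HFD 1, which was at least 108-fold lower than the WT-HFD mean. Cebpd, Ebf2 and Zfp423 were the 3 members with no count in that library, beside 34.1% of all genes tested, and for 6 members it was the lowest of the 6 libraries, beside 56.4% of all genes tested.

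Ddit3 (chr10:127126662-127132160, plus strand) encodes CHOP, a C/EBP relative induced by ER stress that forms inactive pairs with C/EBPα and C/EBPβ. It was at 43.2, 31.1 and 34.9 CPM in WT-HFD 1, 2 and 3 and at 6.27, 38.9 and 25.4 CPM in RFP KO-HFD 1, 2 and 3. RFP KO-HFD 1 was 5.81-fold below the WT-HFD mean, and the other libraries of the groups overlapped. The log2 fold change was −0.63 ± 0.665 (SE; edgeR adjusted p = 0.929), and −0.19 ± 0.269 (SE; edgeR adjusted p = 0.685) without RFP KO-HFD 1. Mars1 and Mbd6 overlap Ddit3 on the other strand by their gene coordinates. Over their whole length they had 696 to 865 counts in WT-HFD, beside 546 to 789 of Ddit3. How many of these reads fall in the shared part was not determined, and reads there cannot be told apart either. Atf4, which drives Ddit3 in the stress response, was at 117.6 to 141.7 CPM in WT-HFD and at 115.2, 141 and 107.4 CPM in RFP KO-HFD (log2 fold change −0.12, edgeR adjusted p = 0.972). Trib3, a target of CHOP, was at 10.7 to 15.6 CPM in WT-HFD and at 5.86, 11.3 and 8.81 CPM in RFP KO-HFD (−0.61, edgeR adjusted p = 0.925). Of the 18 genes listed around Ddit3 in the ATF4 and ER stress response, 12 had a log2 fold change above 0 and 6 below. Over all genes, 44% were above 0. None of the 18 passed an unadjusted p under 0.05 in either direction, beside 6.75% of all genes. The median was 0.19 (−0.10 with library totals), beside −0.13 for all genes.

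Gata3 (chr2:9861889-9894845, minus strand), which represses Pparg in white preadipocytes and is also the master factor of type 2 lymphocytes, had the most negative fold change of the 10, which rested on a single library. It was at 1.64, 179.4 and 2.19 CPM in WT-HFD 1, 2 and 3 and at 3.23, 1.68 and 0.771 CPM in RFP KO-HFD 1, 2 and 3. WT-HFD 2 was 93.6-fold above the mean of WT-HFD 1 and 3, and the other 5 libraries overlapped, with a ratio of RFP KO-HFD to WT-HFD 1 and 3 of 0.989. The log2 fold change of −5.03 ± 2.01 (SE) had an edgeR p of 0.0435 and an adjusted p of 0.717, and it was −0.05 without WT-HFD 2. Gata3 was the 1 member that met the fold criterion of the study, a log2 change of 2 or more in size with an unadjusted p up to 0.05, as did 4.59% of all genes. Gata3os and Gata3un overlap Gata3, the former on the other strand and the latter on the same strand. They had 60 and 116 counts in WT-HFD 2, 0 in WT-HFD 1 and 3, and at most 5 in RFP KO-HFD. Reads in the shared part cannot be told apart from those of Gata3. WT-HFD 2 was also the library with 422.6 CPM of Crisp1, a secretory protein of the epididymis (at most 1.02 CPM in the others). The 12 markers of T cells and innate lymphoid cells summed to 113.5 CPM there, below the 140.5 and 136.6 CPM of WT-HFD 1 and 3. Of these markers, 10 of the 12 were at 0 in RFP KO-HFD 1, Cd3e among them. Gata2, the other GATA factor of preadipocytes, was likewise highest in WT-HFD 2, with 8.97, 92.3 and 8.51 CPM in WT-HFD 1, 2 and 3 and 0, 7.53 and 5.29 CPM in RFP KO-HFD 1, 2 and 3 (log2 fold change −3.07, edgeR adjusted p = 0.805). Which cells carried Gata3 in WT-HFD 2 was not tested.

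**Figure D3:**
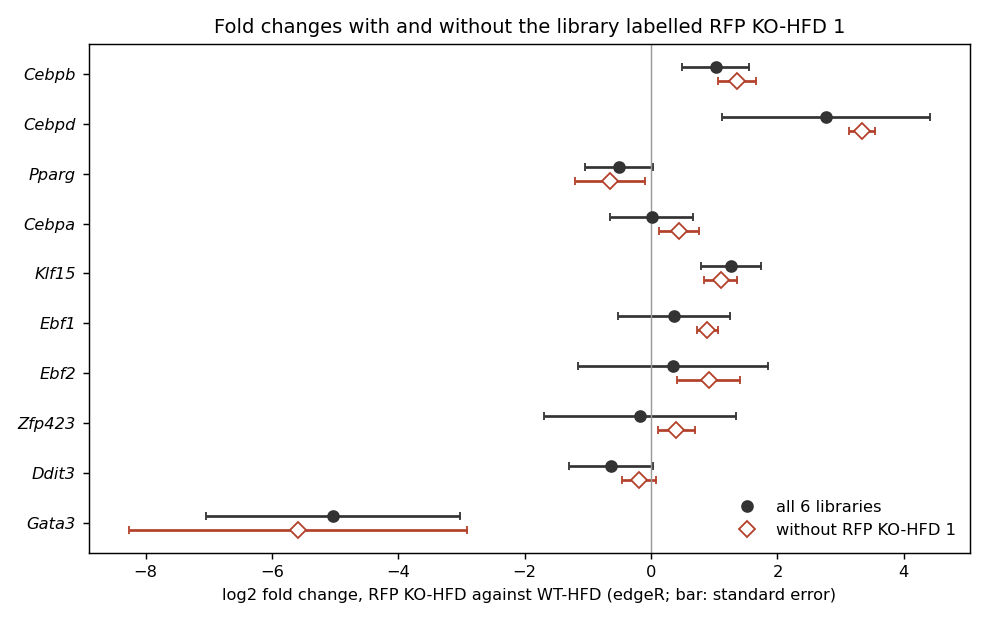
Log2 fold change (x axis) of RFP KO-HFD against WT-HFD for each factor from edgeR, over all 6 libraries (filled circles) and with RFP KO-HFD 1 left out (open diamonds), with bars for 1 SE. The bar of Cebpd shrinks when that library is left out (2.77 ± 1.65 against 3.34 ± 0.209), Zfp423 changes side (−0.17 against 0.40), and Gata3 stays low with a wide bar (−5.03 ± 2.01 against −5.59 ± 2.68).

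Levels of different factors can be compared only per length of transcript, here as CPM per kilobase of exons (GENCODE vM21, build GRCm38). Cebpa was the highest member in WT-HFD, with 85.2 to 144 over the 3 libraries and no overlap with any other. Cebpb (mean 22.1), Ddit3 (21.2) and Pparg (16.3) followed, and their ranges overlapped. Ebf1 (12.2 to 13.2) and Zfp423 (8.72 to 13.3) overlapped as well. Klf15 (3.48 to 3.83), Cebpd (2.39 to 2.66) and Ebf2 (0.69 to 1.3) were lower. The place of Cebpd depends on its length, because its single exon has 3746 bases in that annotation and the deposited gene spans 2260 bases. Over the deposited span, a choice made after seeing the data, Cebpd was at 3.96 to 4.41 per kilobase in WT-HFD, above Klf15. Gata3 was at 0.412 and 0.551 per kilobase in WT-HFD 1 and 3, below Ebf2, and at 45.1 in WT-HFD 2. In RFP KO-HFD 2 and 3 Cebpd was at 22.1 and 29.6 per kilobase of exons, or 36.5 and 49.0 of the deposited span, below Cebpb in the same libraries (51.9 and 63.1) and above Pparg (11 and 9.96) under either length. In WT-HFD 2, 8 of the 10 members were lowest of their group, all but Klf15 and Gata3, beside 47.9% of all genes tested.

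Genes that the factors control were described next. Of 30 listed targets of PPARγ and C/EBPα in adipocytes, all tested, 20 had a log2 fold change above 0 and 10 below. Over all genes, 44% were above 0. At an unadjusted p under 0.05, 1 target was higher and none lower, beside 4.05% and 2.7% of all genes. The median was 0.29, beside −0.13 for all genes. Under library totals this median was −0.14, so its sign depends on the scaling. Fabp4, the fatty acid carrier of adipocytes, was at 7654, 2985.7 and 6560.4 CPM in WT-HFD 1, 2 and 3 and at 103.7, 5039.6 and 6343.5 CPM in RFP KO-HFD 1, 2 and 3 (log2 fold change −0.58, edgeR adjusted p = 0.964). Adipoq (adiponectin) was at 1477.2, 1229.9 and 1477.8 CPM in WT-HFD and at 0, 2025.4 and 2330.4 CPM in RFP KO-HFD (0.06, edgeR adjusted p = 0.998), and Plin1, a lipid droplet coat protein, was also without counts in RFP KO-HFD 1 (0, 596 and 1054.4 CPM in RFP KO-HFD 1, 2 and 3). Adipoq and Plin1 were thus missing from RFP KO-HFD 1 and Fabp4 was lowest there, and Pparg itself stood at 39.4 CPM in that library. Lpl, which frees fatty acids from lipoproteins, was highest of all in RFP KO-HFD 1 (11467.5 CPM against 5347.8 to 8782.6 CPM). Cd36, a fatty acid transporter, was at 2075.1, 602.8 and 1918.5 CPM in WT-HFD and at 173.5, 805.3 and 718.5 CPM in RFP KO-HFD (log2 fold change −1.44, edgeR adjusted p = 0.807), an order like that of Pparg outside RFP KO-HFD 1. Acaa1b, a peroxisomal thiolase, was the target called at an unadjusted p (95.1 to 131 CPM in WT-HFD and 858.4, 141.8 and 293.9 CPM in RFP KO-HFD; log2 fold change 1.96, edgeR adjusted p = 0.67).

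Among 25 other activators of adipogenesis, 14 had a log2 fold change above 0 and 11 below, beside 44% above 0 over all genes. Their median was 0.11 (−0.27 with library totals). At an unadjusted p under 0.05, 1 activator was called, beside 6.75% of all genes. This was Egr2 (Krox20), an inducer of Cebpb in cultured preadipocytes, at 24.0, 19.6 and 19.6 CPM in WT-HFD and at 0, 1.90 and 1.76 CPM in RFP KO-HFD. All RFP KO-HFD libraries were far below all WT-HFD libraries, opposite in direction to Cebpb in RFP KO-HFD 2 and 3 (log2 fold change −4.06, edgeR adjusted p = 0.599; −3.53, adjusted p = 0.0633, without RFP KO-HFD 1). Rxra, the DNA-binding partner of PPARγ, was at 171.4 to 200.7 CPM in WT-HFD and at 106.5, 290.7 and 415.2 CPM in RFP KO-HFD (0.53, edgeR adjusted p = 0.925). Nr3c1, the glucocorticoid receptor, was at 43.0 to 57.3 CPM in WT-HFD and at 102.9, 43.1 and 41.9 CPM in RFP KO-HFD (0.26, edgeR adjusted p = 0.958). Of 29 other inhibitors 26 were tested, with 11 above 0 and 15 below and a median of −0.10. None was called at an unadjusted p under 0.05, beside 6.75% of all genes. Klf2, which represses Pparg, was at 26.2 to 31.4 CPM in WT-HFD and at 38.2, 51.2 and 44.7 CPM in RFP KO-HFD without overlap (0.62, edgeR adjusted p = 0.809). The preadipocyte protein Dlk1 stayed at or below 1.37 CPM in all libraries and was not tested.

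Cebpd, Cebpb and Klf15 are known to respond to glucocorticoids, and 14 further genes of that response were listed, of which Pdk4 and Angptl4 also stand among the targets above. Of these, 12 had a log2 fold change above 0 and 2 below, beside 44% above 0 over all genes. At an unadjusted p under 0.05, 1 was called, beside 6.75% of all genes. The median was 0.96, beside −0.13 for all genes, and 0.60 with library totals, beside −0.50 for all genes. Fkbp5, a chaperone of the receptor, was at 84.7, 65.7 and 73.8 CPM in WT-HFD 1, 2 and 3 and at 12.3, 291.8 and 201.4 CPM in RFP KO-HFD 1, 2 and 3. Like Cebpd, it was high in RFP KO-HFD 2 and 3 and lowest in RFP KO-HFD 1 (log2 fold change 1.17, edgeR adjusted p = 0.906; 1.71, adjusted p = 0.0653, without RFP KO-HFD 1). Mt1, a metallothionein that also responds to metals, showed this too, with 307.6 to 453.6 CPM in WT-HFD and 26.5, 2913.4 and 5368.9 CPM in RFP KO-HFD (2.79, edgeR adjusted p = 0.8). Nfkbia, an inhibitor of NF-κB, was called at an unadjusted p and was above WT-HFD (70.2 to 79.1 CPM) in all 3 RFP KO-HFD libraries (99.5, 202.5 and 255.8 CPM; log2 fold change 1.34, edgeR adjusted p = 0.627), a separation also seen for Klf15. The list was not uniform. Errfi1 was highest in RFP KO-HFD 1 (16.1 to 18.2 CPM in WT-HFD, and 99.1, 24.6 and 12.7 CPM in RFP KO-HFD 1, 2 and 3). Its log2 fold change was 1.38 (edgeR adjusted p = 0.818), and 0.09 without RFP KO-HFD 1. Whether glucocorticoids set the levels of Cebpd, Cebpb or Klf15 was not tested. The 14 genes summed to 1236.4 to 1897.4 CPM in WT-HFD and to 585.1, 6456.2 and 10398.9 CPM in RFP KO-HFD 1, 2 and 3. The sums of RFP KO-HFD 2 and 3 rest largely on Mt1 (2913.4 and 5368.9 CPM) and Mt2 (1380.8 and 2515.6 CPM). They are therefore no measure of the list as a whole.

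Immediate early genes, which mark recent stimulation of cells and include regulators of Cebpb, numbered 13, with Egr2 and Atf3 shared with the lists above. Of these, 9 had a log2 fold change above 0 and 4 below, beside 44% above 0 over all genes. At an unadjusted p under 0.05, 3 were higher and 1 (Egr2) lower, beside 4.05% and 2.7% of all genes. The median was 0.77 (0.47 with library totals, 0.51 without RFP KO-HFD 1), beside −0.13 for all genes. Zfp36, which destabilizes inflammatory mRNAs, was at 58.1 to 74.0 CPM in WT-HFD and at 198.7, 109.9 and 233.7 CPM in RFP KO-HFD (1.48, edgeR adjusted p = 0.599). Fos was high in RFP KO-HFD 1 alone (148.6 CPM, against 6.60 to 21.4 CPM in the others), so Fos and Cebpd were ordered differently across the RFP KO-HFD libraries.

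The cells in which the relay starts were described last, by 17 genes of preadipocytes and fibroblasts. A total of 14 had a log2 fold change below 0 and 3 above, beside 44% above 0 over all genes. At an unadjusted p under 0.05, 2 were lower, beside 2.7% of all genes. The median was −1.53, beside −0.13 for all genes. All 9 markers of mesothelium also had log2 fold changes below 0 (6 at an unadjusted p under 0.05, median −3.85). So did all 9 of pericytes and smooth muscle (3 at an unadjusted p under 0.05, median −3.01). Without WT-HFD 2 these medians were −3.65 and −1.19. Endothelium differed, with 6 of its 10 markers above 0 and 4 below. Its median was 0.12, and 0.61 without RFP KO-HFD 1. The pericyte and smooth muscle markers summed to 19213.6 CPM in WT-HFD 2, against 1318.4 and 1205.2 CPM in WT-HFD 1 and 3. The 17 genes of preadipocytes and fibroblasts summed to 4266.8, 1814.6 and 3886.9 CPM in WT-HFD 1, 2 and 3 and to 385.5, 2151.6 and 1105.8 CPM in RFP KO-HFD 1, 2 and 3. Pdgfra, the receptor that marks these precursors, was at 36, 12.5 and 33.1 CPM in WT-HFD and at 16, 16.4 and 14.8 CPM in RFP KO-HFD (log2 fold change −0.79), so WT-HFD 2 was lowest and the RFP KO-HFD libraries sat close together, as for Pparg. Fbn1, a fibril protein of the matrix, was called (81.7 to 245.4 CPM in WT-HFD and 7.28, 38.8 and 45.3 CPM in RFP KO-HFD; −2.61, edgeR adjusted p = 0.599). Of the factors expressed by such precursors, Ebf1 was above every WT-HFD library in RFP KO-HFD 2 and 3, whereas Zfp423 in RFP KO-HFD 2 (67.7 CPM) lay within the range of WT-HFD (48.9 to 74.8 CPM). The 9 macrophage markers summed to 2858.4, 1232 and 2887.9 CPM in WT-HFD and 426.4, 1387.9 and 1125.9 CPM in RFP KO-HFD. Macrophages also express Cebpb and Cebpd, and their part in the levels of both factors was not tested.

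**Figure D4:**
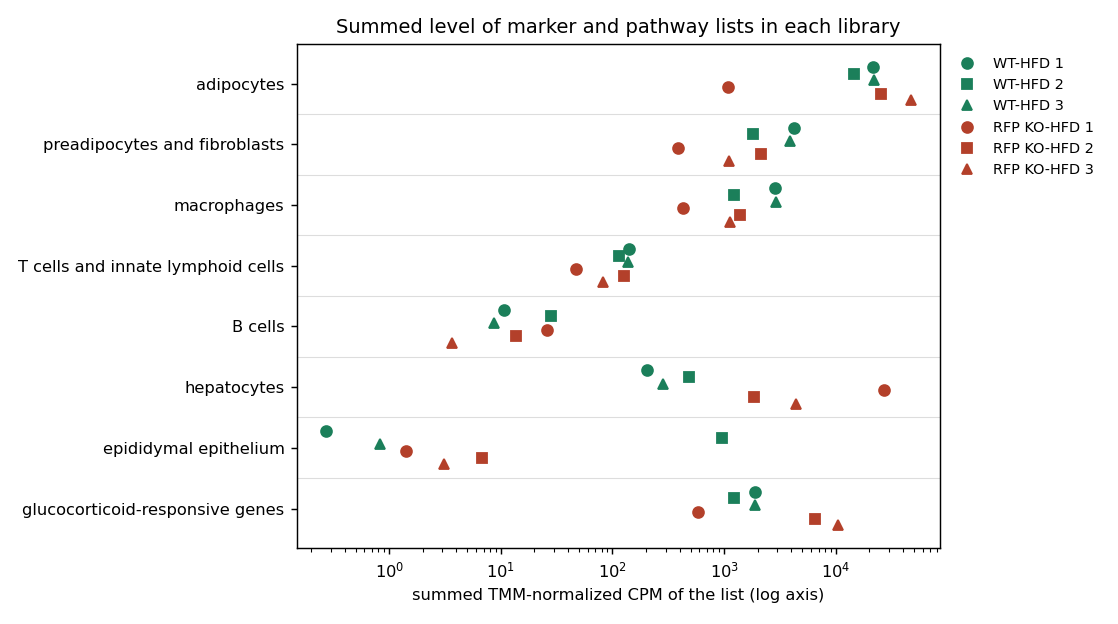
Summed TMM-normalized CPM (x axis, log scale) of marker and pathway lists in the 3 WT-HFD (green) and 3 RFP KO-HFD libraries (red), 1 row per list. RFP KO-HFD 1 has the lowest adipocyte sum (1089.5 CPM) and the highest hepatocyte sum (26922.4 CPM), and WT-HFD 2 the highest sum of epididymal epithelium (947.5 CPM). RFP KO-HFD 2 and 3 have the highest sums of glucocorticoid-responsive genes (6456.2 and 10398.9 CPM), of which Mt1 alone makes up 2913.4 and 5368.9 CPM.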

How the data were processed

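RNA of the 6 eWAT libraries was extracted with Trizol and sequenced from CORALL V2 libraries after poly(A) selection (the labels also name rRNA removal) as paired ends. The study's methods name Fastp, STAR and Salmon, and the submitters' processing notes FastQC, Trimmomatic, STAR and mm10, whereas the deposited table names GRCm39; their versions are not given in the sources used here. Raw counts per gene, as the authors deposited them, were used. Their normalized values and their own fold changes, p-values and q-values were not used. Counts were tested with edgeR 4.0.16 in R 4.3.3: TMM, filterByExpr (min.count 10, min.total.count 15), a robust quasi-likelihood test with a term for genotype alone, and Benjamini-Hochberg adjustment at 0.05. CPM are TMM-normalized, and sums over marker genes also include untested genes. Floors are 3 counts and, like intervals, cover counting error only. Standard errors are the absolute log2 fold change divided by the root of F. The fit was tested on simulated data.

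The results were also computed with DESeq2 1.42.0, voom of limma 3.58.1 (plain or with library weights), other scalings and filters, a replicate block and libraries left out. The early and late comparison without 2 libraries was added after seeing the data. The members and lists were chosen with earlier results of these data known. Named genes were all members, Trim27, a preset few of each list and the 4 of smallest p per list. Fkbp5, Nr3c1, Rxra, Klf2, Gata2, Dlk1, Pdgfra, Atf4, Trib3 and Fos belong to the preset few.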

Additional observations from a re-analysis of the deposited data

How the results depend on the processing

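The count of genes past an adjusted p under 0.05, 0 in edgeR's test of all 6 libraries (992 at an unadjusted p under 0.05), was 488 in DESeq2 (0 in plain limma-voom), 1039 after quality weights were added to limma-voom, 507 without RFP KO-HFD 1 and WT-HFD 2 together, and 0 to 2 with each library left out in turn. Members past the threshold were Klf15 with DESeq2 (1.31), Cebpb (1.14), Cebpd (3.13) and Klf15 (1.12) with limma-voom and quality weights, Cebpd (3.34) without RFP KO-HFD 1, and Cebpb (1.15) and Cebpd (3.31) without RFP KO-HFD 1 and WT-HFD 2 together. DESeq2 gave no adjusted p for Gata3. Log2 fold changes that turned were those of Cebpa (−0.32), Ebf1 (−0.33) and Ebf2 (−1.69) with limma-voom, Zfp423 (0.09) with quality weights, Cebpa (−0.44), Ebf1 (−0.07) and Ebf2 (−0.20) with library totals, Cebpa (−0.06) with no filter, and Zfp423 (0.23) without RFP KO-HFD 1 and WT-HFD 2 together. The cause was not tested. Library totals moved the median of all genes from −0.13 to −0.50. With each library left out in turn, log2 fold changes ranged from −0.92 to −0.19 for Pparg, −0.59 to 0.44 for Cebpa, 0.66 to 1.36 for Cebpb, 2.10 to 3.34 for Cebpd, 1.10 to 1.43 for Klf15, −0.08 to 0.89 for Ebf1, −0.92 to 0.91 for Ebf2, −0.97 to 0.40 for Zfp423, −1.15 to −0.19 for Ddit3 and −5.62 to −0.05 for Gata3. Pparg, Ddit3 and Gata3 stayed below 0 and Cebpb, Cebpd and Klf15 above 0 in every alternative that gave a value. With at least 10 counts in every library, Cebpd, Ebf2, Zfp423 and Gata3 were not tested. The early minus late difference, 0.85, was 0.53 and 1.05 with prior counts of 0.5 and 5, 0.07 to 2.35 with each library left out in turn, and 2.60 without RFP KO-HFD 1 and WT-HFD 2 together.

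Libraries with the same number in both groups had correlations of 0.029, 0.023 and 0.052 of their deviations from the group means, and each WT-HFD library correlated best with its own number, a hint from the data and not from the design. The numbers are taken as names. A replicate block gave 0 genes past the threshold and 393 at an unadjusted p under 0.05, and log2 fold changes of −0.26 for Cebpa, −0.22 for Ebf1 and −0.50 for Ebf2.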
